A study of Mus musculus with 6 samples.

Results

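The 10 genes described here handle iron at several steps between the cell surface and the mitochondrion. They include the transferrin receptors Tfrc and Tfr2, the endosomal reductase Steap3, the divalent metal transporter Slc11a2 and the mitochondrial importer Slc25a37 (mitoferrin 1). The others are the ferritin chains Fth1 and Ftl1, the exporter Slc40a1 (ferroportin), and Aco1 and Ireb2, which encode the iron regulatory proteins IRP1 and IRP2. The 10 genes were chosen by function, from a fixed list of symbols, out of 48709 genes in the count table. Earlier results of these data were known when they were chosen. All 10 were among the 12722 genes with enough counts to be tested. The cells were G1E-ER4, a mouse erythroid progenitor line derived from embryonic stem cells and labelled as immature erythroblasts. The line carries GATA1 fused to the ligand-binding domain of the estrogen receptor, and tamoxifen, which activates the fusion protein, was given to both groups. Cells received 10 μM of CHD4-APR, a Tat-conjugated peptide matching an aggregation-prone stretch of the chromatin remodeler CHD4, or the same amount of CTRL, a Tat-conjugated alanine peptide. Tamoxifen was added after 2 h, at a concentration that the submitters state once in nanomolar and once in micromolar units, and cells were collected 28 h later. Each group had 3 libraries of poly(A) RNA, all of 1 cell line. No library without tamoxifen or without a peptide was analysed here, and the labels do not say whether the 3 libraries came from separate cultures, so the p-values measure the spread between these libraries, which may be technical.

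Erythroblasts take up more iron than almost any other cell because each hemoglobin subunit needs a heme. Transferrin carrying ferric iron binds the receptor TFRC and is taken into endosomes, where STEAP3 reduces the iron and SLC11A2 passes it to the cytosol. SLC25A37 brings it into mitochondria for heme and iron-sulfur clusters, ferritin cages of heavy and light chains store the surplus, and ferroportin releases it. IRP1 and IRP2 bind iron-responsive elements, short hairpins in messenger RNA, when iron is scarce. An element in the 5′ untranslated region (UTR) then blocks translation of the message, while elements in the 3′ UTR of Tfrc protect it from decay. Read counts reflect the amount of messenger RNA and not its translation.

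The elements of 4 of the 10 genes are shown because they define which messages are read by the products of 2 others, Aco1 and Ireb2. Transcript UTRs of the GENCODE M21 annotation on GRCm38 were searched on the transcript strand for a C, 5 bases, the letters CAGTG, 1 base other than G, and 5 bases that pair with the upper 5, G-T pairs included. Capitals mark the bulged C and the 6-base loop, and lower case marks the stem and the bases beside it; each is written 5′ to 3′ over 30 bases. The search found 7 elements in the 10 genes. Fth1 at chr19:9982731-9982760 (plus strand), Ftl1 at chr7:45459779-45459808 (minus strand) and Slc40a1 at chr1:45925465-45925494 (minus strand) each held 1 in the 5′ UTR:
Fth1: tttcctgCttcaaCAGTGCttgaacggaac
Ftl1: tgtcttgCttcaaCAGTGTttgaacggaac
Slc40a1: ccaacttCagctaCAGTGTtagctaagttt
Tfrc held 4 in the 3′ UTR, on the plus strand at chr16:32631218-32631247, chr16:32631597-32631626, chr16:32631662-32631691 and chr16:32631709-32631738, in this order:
Tfrc element 1: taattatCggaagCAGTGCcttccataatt
Tfrc element 2: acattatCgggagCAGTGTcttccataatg
Tfrc element 3: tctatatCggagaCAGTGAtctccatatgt
Tfrc element 4: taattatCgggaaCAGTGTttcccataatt

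The elements of both ferritin chains were the same at 27 of 30 positions. Matches to this pattern were rare: 22 of 20281 genes with an annotated 5′ UTR held one there (0.108%), as did 110 of 21031 genes with a 3′ UTR (0.523%). Of 9 genes known to carry an element, 5 were matched; Slc11a2, Cdc42bpa and Epas1 were among those with no match to these letters. A match is a description of the sequence, and the counts per gene do not separate the transcripts of Slc11a2 or Slc40a1 that contain an element from those that do not.

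Library depth was 41687482 to 49784177 counts, and the 10 genes took 0.746% to 0.824% of them. The labelled cell type was checked with marker genes. The 11 erythroid markers with a match in the table were all expressed, with levels, in counts per 1000000 counts of the library (CPM), that summed to 33913 to 36529 CPM in CTRL and 30291 to 31900 CPM in CHD4-APR libraries; 1 was called higher (edgeR adjusted p under 0.05, against 20.4% of all genes tested) and 4 lower (against 17.8%), both alpha globin genes among the latter. Without the alpha globin genes, the other 9 summed to 8560.1 to 8686 CPM in CTRL and 8613 to 8809 CPM with CHD4-APR, which overlapped. Slc4a1 alone had 5466 to 5889 CPM over all libraries, so this sum says little of the other markers. Gfi1b and Klf1 were also called lower (log2 fold change -0.38 and -0.17), and Epb42 was the marker called higher (0.34). The 9 megakaryocyte markers summed to 55.5 to 59.7 CPM in CTRL and 51.4 to 55.2 CPM with CHD4-APR, with 1 of 5 tested called (Gp9, lower). Of 12 macrophage and granulocyte markers, 10 had at most 3 counts over all libraries, and the whole list summed to 8.36 to 9.80 CPM and 6.86 to 8.23 CPM, with Cd68 called lower. Lymphoid markers summed to at most 0.614 CPM, and all 5 fibroblast markers were at 0. The part of these shifts in the changes below was not tested. In bulk RNA, fewer cells of a kind and less RNA per cell cannot be told apart.

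With CHD4-APR, Ireb2, Tfrc and Slc40a1 rose and Fth1 and Ftl1 fell, while Tfr2, Steap3, Slc11a2, Slc25a37 and Aco1 did not pass the test (edgeR's quasi-likelihood test, Benjamini-Hochberg adjusted p under 0.05 over all genes tested). So 3 of 10 genes were called higher, against a background of 20.4% of all genes tested, and 2 of 10 lower, against 17.8%. In either direction 5 of 10 (50%) were called, and 38.3% of all genes. The normalized levels of both groups did not overlap for 6 of 10 genes, and for 49.9% of all genes tested. The median log2 fold change was 0.0050 over the 10 genes and -0.012 over all genes tested. Changes across the transcriptome ran with base composition: the median log2 fold change was 0.25 in the decile of genes with the lowest GC content (median 39.2% GC) and -0.16 in the decile with the highest (median 59.7% GC). A second fit removed each library's trend with exonic length and GC content. It called 28.1% of all genes and 2 of the 10 iron genes, Ireb2 (higher) and Fth1 (lower). Among the markers, Gp9, Cd68, Klf1 and both alpha globin genes did not pass in it, and 2 erythroid markers were called higher (Slc4a1 and Epb42) and 1 lower (Gfi1b). Over all genes, 2601 were called higher and 2270 lower in the first fit, and 1496 (11.8%) and 2063 (16.3%) in the second. Each value below is from the first fit unless the correction is named.

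**Figure D1:**
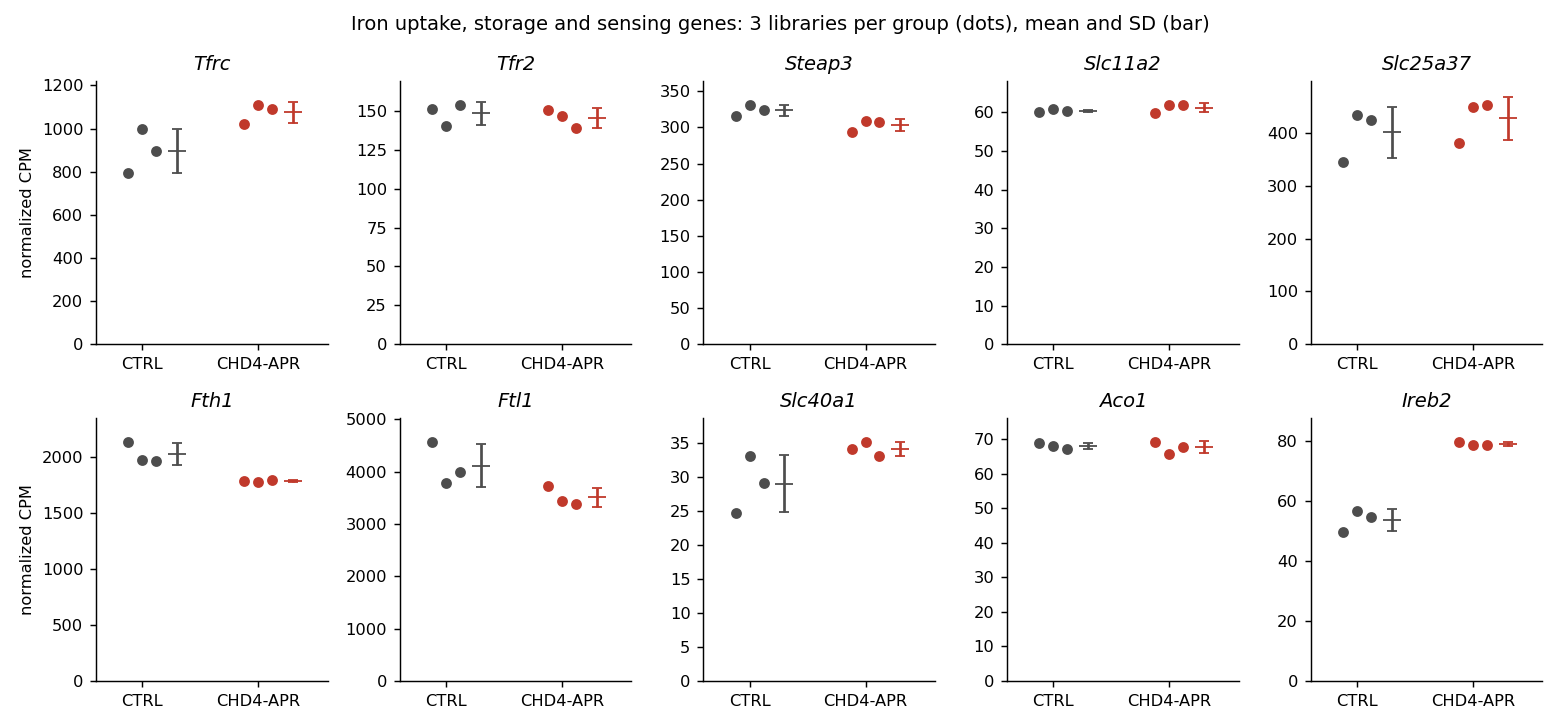
Normalized CPM (vertical axes, each starting at 0) of the 10 iron genes in the 3 CTRL and 3 CHD4-APR libraries; dots are libraries, and the bar beside them gives the mean and SD. Every CHD4-APR library lies above every CTRL library for Ireb2, Tfrc and Slc40a1 and below for Fth1, Ftl1 and Steap3, with the widest gap for Ireb2 relative to its level.

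**Figure D2:**
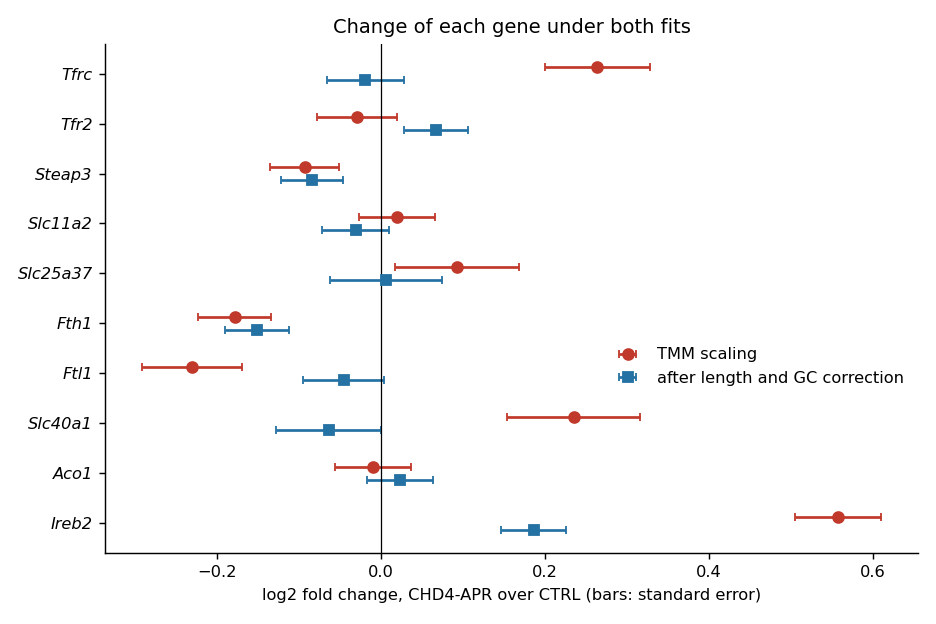
Log2 fold change of each iron gene with its standard error, with TMM scaling (red circles) and after correction for length and GC content (blue squares). Ireb2 and Fth1 keep their direction at a distance of several standard errors from 0, whereas Tfrc, Slc40a1 and Ftl1 come close to 0 after the correction.

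**Figure D3:**
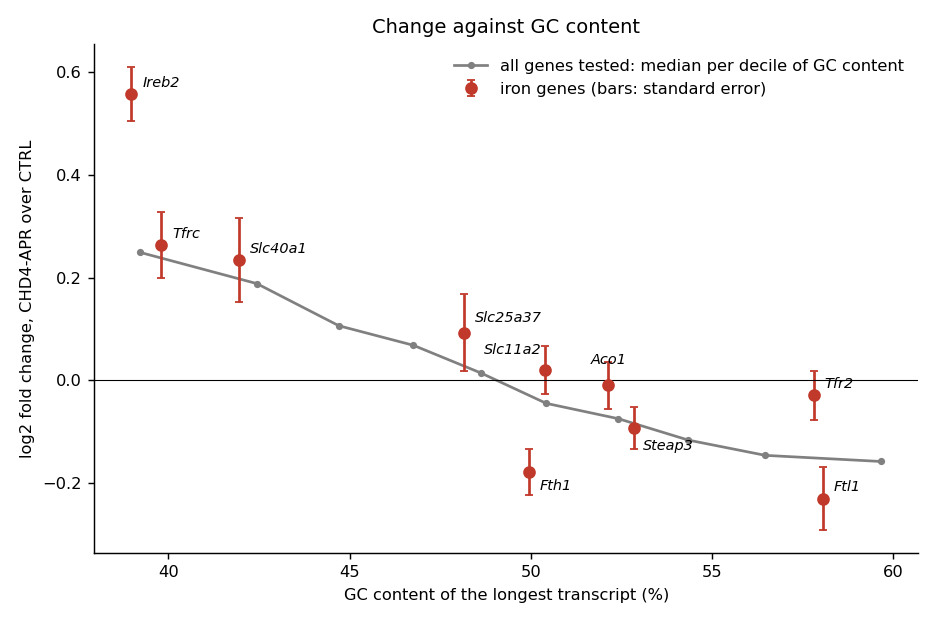
Log2 fold change of the 10 iron genes (red, with standard error) against the GC content in percent of the longest transcript, with the median change per decile of all genes tested by GC content (grey line). Tfrc and Slc40a1 lie close to the line, Ireb2 lies above it and Fth1 below it.

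Tfrc, the receptor that brings transferrin-bound iron into the cell, lies at chr16:32608920-32632794 on the plus strand. It had 793, 998 and 895 CPM in CTRL libraries 1 to 3 and 1022, 1109.6 and 1092 CPM in the CHD4-APR libraries. All 3 treated libraries were above all 3 controls, CTRL replicate 2 came nearest to them, and the controls were the more spread out. The means were 895 ± 102 CPM (SD, n = 3) and 1075 ± 46.4 CPM (SD, n = 3), a rise of 0.26 on the log2 scale (SE 0.064, edgeR adjusted p = 0.0039). Its longest transcript has 39.8% GC, within the lowest decile of genes, whose median change was 0.25. After the length and GC correction the log2 fold change was -0.019 (SE 0.047, edgeR adjusted p = 0.81).

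Tfr2 encodes the second transferrin receptor, which in erythroid cells associates with the erythropoietin receptor. It had 151, 140.3 and 154 CPM in CTRL and 151, 147 and 139 CPM with CHD4-APR, so the ranges of both groups overlapped. The log2 fold change was -0.030 (95% interval -0.13 to 0.073, edgeR adjusted p = 0.67), and at 57.8% GC it was 0.067 after the correction (edgeR adjusted p = 0.23). Within libraries, the ratio of Tfrc to Tfr2 counts was 5.24, 7.11 and 5.82 in CTRL and 6.77, 7.56 and 7.87 with CHD4-APR. The controls overlapped the treated libraries, and the difference of 0.30 on the log2 scale did not pass the test (two-sided exact permutation test over 20 regroupings, p = 0.2, adjusted p = 0.24 over 6 ratios). With 3 libraries against 3 this exact test cannot go below p = 0.1. None of the 6 ratios is corrected for length and GC content. The corrected log2 fold changes of Tfrc and Tfr2 were -0.019 and 0.067.

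Steap3, the ferrireductase of erythroid endosomes, was the gene whose groups were separate without passing the test. Its levels were 316, 331 and 324 CPM in CTRL and 294, 309 and 307 CPM with CHD4-APR. The means, 323 ± 7.66 CPM and 303 ± 7.84 CPM (SD, n = 3 each), gave a log2 fold change of -0.093 (SE 0.042, 95% interval -0.18 to -0.0049 before adjustment, edgeR adjusted p = 0.090). The correction left it at -0.085 (edgeR adjusted p = 0.11). It passed in only 2 of 16 alternatives, with upper quartile scaling (edgeR adjusted p = 0.045) and without CTRL replicate 1 (edgeR adjusted p = 0.034). Without CHD4-APR replicate 1 the edgeR adjusted p was 0.31.

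Slc11a2, which carries the reduced iron out of the endosome, varied little. It had 60.2, 60.8 and 60.4 CPM in CTRL and 60.0, 61.9 and 61.9 CPM with CHD4-APR. The groups overlapped, and the log2 fold change of 0.020 had an interval of -0.078 to 0.12 (95%, edgeR adjusted p = 0.77).

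Slc25a37, the mitochondrial iron importer of developing erythroid cells, ranged widely within groups. CTRL libraries had 346, 434 and 424 CPM, and CHD4-APR libraries had 381, 449 and 453 CPM. Replicate 1 was the lowest of its group in both cases, and the groups overlapped. The means were 401 ± 48.1 CPM and 428 ± 40.3 CPM (SD, n = 3 each), a log2 fold change of 0.093 (95% interval -0.066 to 0.25, edgeR adjusted p = 0.36) that came to -0.0039 without CTRL replicate 1. Its paralog Slc25a28 (mitoferrin 2), the importer of most other tissues, had 28.7, 23.1 and 27.1 CPM in CTRL and 23.8, 22.8 and 21.8 CPM with CHD4-APR (log2 fold change -0.20, SE 0.077, edgeR adjusted p = 0.047), a call that the correction ended (-0.12, edgeR adjusted p = 0.21). Slc25a37 counts exceeded Slc25a28 counts 12.0-, 18.7- and 15.7-fold in CTRL and 16.0-, 19.7- and 20.7-fold with CHD4-APR. These ratios overlapped between groups (log2 difference 0.30, exact permutation p = 0.2, adjusted p = 0.24), and the difference was 0.13 without CTRL replicate 1 and 0.44 without CTRL replicate 2.

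Both ferritin chains fell. Fth1, the heavy chain with the ferroxidase activity that loads iron into the cage, lies at chr19:9980598-9985098 on the plus strand. It had 2137, 1969.9 and 1964 CPM in CTRL and 1786, 1780.3 and 1798 CPM with CHD4-APR. The treated libraries were closely grouped and all below the lowest control. The means were 2024 ± 98.5 CPM and 1788 ± 8.81 CPM (SD, n = 3 each), and Fth1 fell by 11.6% (log2 fold change -0.18, SE 0.044, edgeR adjusted p = 0.0044). At 49.95% GC, near the middle of all genes, the correction moved it to -0.15 (SE 0.039, edgeR adjusted p = 0.0088). Fth1 passed in all 16 alternatives tried, with log2 fold changes of -0.20 to -0.14.

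Ftl1, the light chain that favours mineral formation inside the cage, lies at chr7:45457944-45459884 on the minus strand. Its levels were 4573, 3789 and 3988 CPM in CTRL and 3718, 3436 and 3372 CPM with CHD4-APR. The groups did not overlap, though CTRL replicate 2 and CHD4-APR replicate 1 lay close together. Means of 4116 ± 407 CPM and 3508 ± 184 CPM (SD, n = 3 each) gave a fall of the light chain, which fell by 14.8% (log2 fold change -0.23, SE 0.061, edgeR adjusted p = 0.0066). Ftl1 has 58.1% GC, within the highest decile of genes, whose median change was -0.16, and after the correction its log2 fold change was -0.046 (SE 0.050, edgeR adjusted p = 0.55). Without CTRL replicate 1, the highest library, it was -0.15 in the first fit and still passed (edgeR adjusted p = 0.011). The ratio of heavy to light chain counts was 0.467, 0.520 and 0.492 in CTRL and 0.480, 0.518 and 0.533 with CHD4-APR. The ranges overlapped almost entirely, and the log2 difference was 0.050 (exact permutation p = 0.5, adjusted p = 0.5). Leaving out CTRL replicate 1 or 2 gave 0.012 or 0.089, and leaving out CHD4-APR replicate 1 or 3 gave 0.093 or 0.018.

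Ferritin genes have near-identical copies that can share reads, and how reads mapping to several places were counted is not given in the sources used here. The table held 14 other genes with ferritin symbols, of which 8 had no counts in any library and 2 had enough to be tested. Ftl1-ps1 had 81.0, 66.1 and 68.9 CPM in CTRL and 67.9, 59.4 and 58.6 CPM with CHD4-APR (log2 fold change -0.22, edgeR adjusted p = 0.025). Ftl2-ps had a log2 fold change of -0.19 (edgeR adjusted p = 0.058). Both were far below Ftl1 itself, and the split of reads between them and Ftl1 is uncertain.

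Slc40a1, the only known iron exporter, was the least expressed of the 10. It had 24.7, 33.1 and 29.1 CPM in CTRL and 34.2, 35.2 and 33.1 CPM with CHD4-APR. The groups were separate only beyond the digits shown, since the highest control and the lowest treated library both round to 33.1. The means were 29.0 ± 4.20 CPM and 34.2 ± 1.04 CPM (SD, n = 3 each), a 1.18-fold rise (log2 fold change 0.23, SE 0.082, edgeR adjusted p = 0.032). That call was lost without CTRL replicate 1 (log2 fold change 0.13), and also without CTRL replicate 3 or CHD4-APR replicate 1 or 2. With 42.0% GC, in a decile of genes whose median change was 0.19, its corrected log2 fold change was -0.064 (edgeR adjusted p = 0.51).

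The ratio of Slc11a2 to Slc40a1 counts, transport from the endosome against export, was 2.43, 1.83 and 2.07 in CTRL and 1.75, 1.76 and 1.87 with CHD4-APR. The groups overlapped through CTRL replicate 2 (log2 difference -0.23, exact permutation p = 0.2, adjusted p = 0.24), and the difference was -0.12 without CTRL replicate 1. This ratio is not corrected for length and GC content. The corrected log2 fold changes of Slc11a2 and Slc40a1 were -0.031 and -0.064.

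Of the genes of the iron regulatory proteins, Ireb2 rose and Aco1 did not pass the test. Ireb2 encodes IRP2, which is removed by ubiquitin-dependent degradation when iron is plentiful, and lies at chr9:54863789-54912530 on the plus strand. Its levels were 49.8, 56.8 and 54.8 CPM in CTRL and 79.9, 78.9 and 78.8 CPM with CHD4-APR. Every treated library was far above every control, and the treated libraries lay close together. The means were 53.8 ± 3.61 CPM and 79.2 ± 0.639 CPM (SD, n = 3 each), a 1.47-fold rise (log2 fold change 0.56, SE 0.053, edgeR adjusted p = 1.6e-06). This change was larger in size than that of 92.0% of all genes tested. With 39.0% GC Ireb2 lies in the same decile of genes as Tfrc, and the correction reduced its log2 fold change to 0.19 (SE 0.040, edgeR adjusted p = 0.0024). It passed in all 16 alternatives.

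Aco1 encodes IRP1, which is a cytosolic aconitase while it holds an iron-sulfur cluster and binds RNA once the cluster is lost. It had 69.0, 68.1 and 67.2 CPM in CTRL and 69.3, 65.9 and 67.8 CPM with CHD4-APR, with the treated libraries on both sides of the controls. The log2 fold change was -0.0098 (95% interval -0.11 to 0.088, edgeR adjusted p = 0.89). Aco1 counts were 1.39, 1.199 and 1.23 times those of Ireb2 in CTRL, and 0.867, 0.835 and 0.861 times with CHD4-APR. All treated ratios were below all controls, a log2 difference of -0.57 (exact permutation p = 0.1, the smallest possible, adjusted p = 0.24). Counts are not set per length here, and per kilobase Aco1 was above Ireb2 in all 6 libraries. The ratio is not corrected for length and GC content, and the corrected log2 fold changes of Aco1 and Ireb2 were 0.023 and 0.19.

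The ratio of Tfrc to Fth1 sets the message of an uptake gene against that of a storage gene. The 5′ element of Fth1 acts on translation, which read counts do not show. The ratio of counts was 0.371, 0.506 and 0.456 in CTRL and 0.572, 0.623 and 0.608 with CHD4-APR. All treated libraries were above all controls, with a log2 difference of 0.45 (exact permutation p = 0.1, the smallest possible, adjusted p = 0.24). The corrected log2 fold changes of Tfrc and Fth1 were -0.019 and -0.15, and only the Fth1 side of this ratio passed in that fit.

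**Figure D4:**
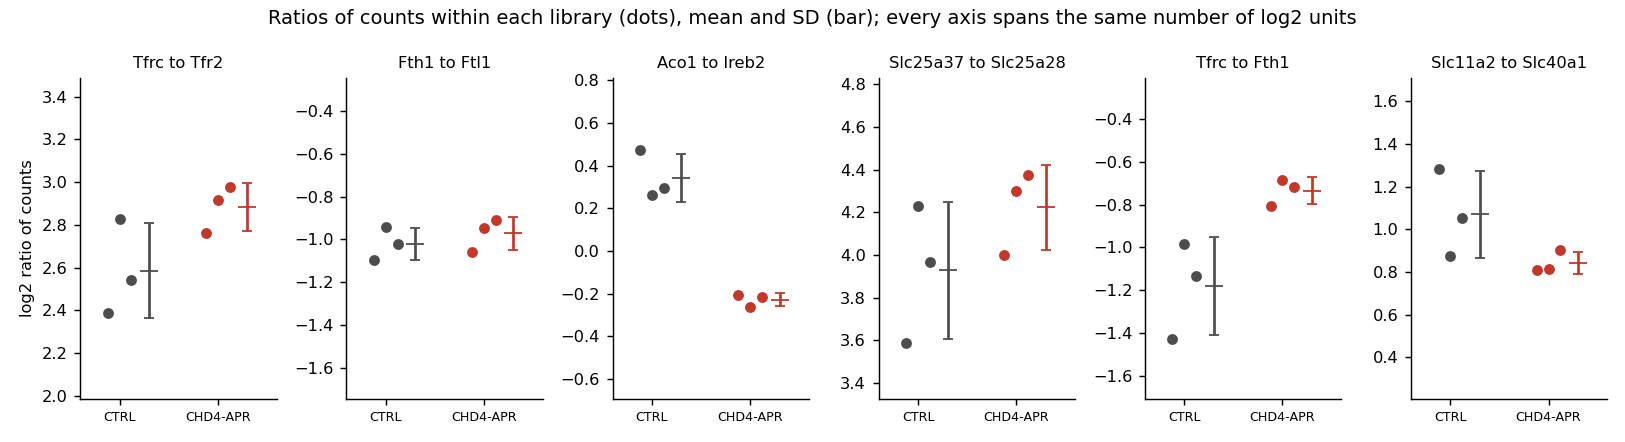
Ratios of counts between pairs of iron genes within each library, on a log2 scale whose axes all span the same range; dots are libraries, and the bar gives the mean and SD of each group. The groups are separate for Aco1 to Ireb2 and for Tfrc to Fth1, and they overlap for the other 4 ratios.

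Levels can be compared between genes only per length. In CPM per kilobase of exon sequence, ferritin light chain stood first at 2516 to 3412 over the 6 libraries, followed by Fth1 at 513 to 616 and Tfrc at 128 to 179. Slc25a37 came next at 57.4 to 75.2, a range that overlapped that of Steap3 at 51.5 to 57.9, although Slc25a37 was the higher in each of the 6 libraries. Below them were Tfr2 (32.0 to 35.5 CPM per kilobase), Aco1 (14.6 to 15.4), Slc11a2 (9.44 to 9.75), Ireb2 (5.25 to 8.43) and Slc40a1 (2.75 to 3.91). The ranges of the other neighbours in this order did not overlap, and the order was the same in all 6 libraries. With the length of the longest principal transcript in place of all exons, Aco1 and Slc11a2 changed places. Both ferritin chains together took 0.571% to 0.649% of all counts in CTRL and 0.521% to 0.561% in CHD4-APR libraries.

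The genes whose log2 levels followed Tfrc most closely over the 6 libraries, among 5134 genes searched, were Trim59 (Pearson's r = 0.996), Csnk2a1 (0.996), a casein kinase subunit, and Smarca5 (0.995), a chromatin remodeler. For Fth1 they were Cyb5r3, a cytochrome b5 reductase, Psmb2, a proteasome subunit, and Tmem208, each with r = 0.998. These are the highest of many values over libraries that fall into both groups, and they describe a shared order of levels only.

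Other genes of iron handling moved in both directions. Of 41 listed, 22 were tested, and 7 were called higher and 8 lower (68.2%, median log2 fold change -0.11, against 38.3% and -0.012 over all genes). Leaving out 1 library gave 7 called higher each time and 4 to 9 called lower. Among the 19 not tested were the hormone Hamp, which is made in the liver, and the gut reductase Cybrd1. Those that rose included Fbxl5, the iron-sensing subunit of the ligase that marks IRP2 for degradation, with 16.5, 16.6 and 16.4 CPM in CTRL and 23.0, 22.5 and 20.2 CPM with CHD4-APR (log2 fold change 0.40, SE 0.069, edgeR adjusted p = 2.9e-04). After the correction Fbxl5 had 0.078 (edgeR adjusted p = 0.42), so it did not pass in the fit in which Ireb2 still did. Flvcr1, a heme exporter, had a log2 fold change of 0.33. Vps35 and Exoc6, which serve endosomal sorting and the recycling of transferrin receptors, had 0.30 and 0.27, and after the correction -0.076 (edgeR adjusted p = 0.12) and 0.14 (edgeR adjusted p = 0.022). Blvrb, a biliverdin reductase of red cells, fell from a mean of 1544 to 1240.3 CPM (log2 fold change -0.32). Ncoa4, the receptor that delivers ferritin to lysosomes, was chosen after its values were seen: it had 795, 851 and 835 CPM in CTRL and 1011, 978 and 962 CPM with CHD4-APR (log2 fold change 0.25, SE 0.043, edgeR adjusted p = 2.8e-04). The correction brought Ncoa4 to 0.022 and ended its call (edgeR adjusted p = 0.68). After the length and GC correction 9 of the 22 were called, against 28.1% of all genes, 4 higher (against 11.8%) and 5 lower (against 16.3%), and 5 of these were also called before: Flvcr1, Exoc6, Blvrb, Bola2 and Glrx3.

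All 28 genes of iron-sulfur cluster assembly were tested, and 12 were called lower (42.9%, against 17.8% of all genes) and 0 higher; 0 were higher at an unadjusted p under 0.05, and DESeq2 called 11 lower and 0 higher. Their median log2 fold change was -0.12. Fdx1l, a mitochondrial ferredoxin, had 25.9, 24.02 and 22.4 CPM in CTRL and 18.8, 20.1 and 20.9 CPM with CHD4-APR (log2 fold change -0.27, SE 0.071, edgeR adjusted p = 0.0061). Every treated library was below every control, though Fdx1l did not pass after the correction (-0.093, edgeR adjusted p = 0.32). With the correction 10 were called lower, against 16.3% of all genes, of which 4 had been called before (among them Glrx5, Isca2 and Narfl), with the median again at -0.12. Glrx5, a mitochondrial glutaredoxin, was the most abundant, with a mean of 933 CPM in CTRL and 785 CPM with CHD4-APR, and the other 27 summed to 1498 to 1523 CPM in CTRL and 1387 to 1437 CPM with CHD4-APR. At an adjusted p under 0.01, 7 of the 28 were called lower, against 10.3% of all genes.

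**Figure D5:**
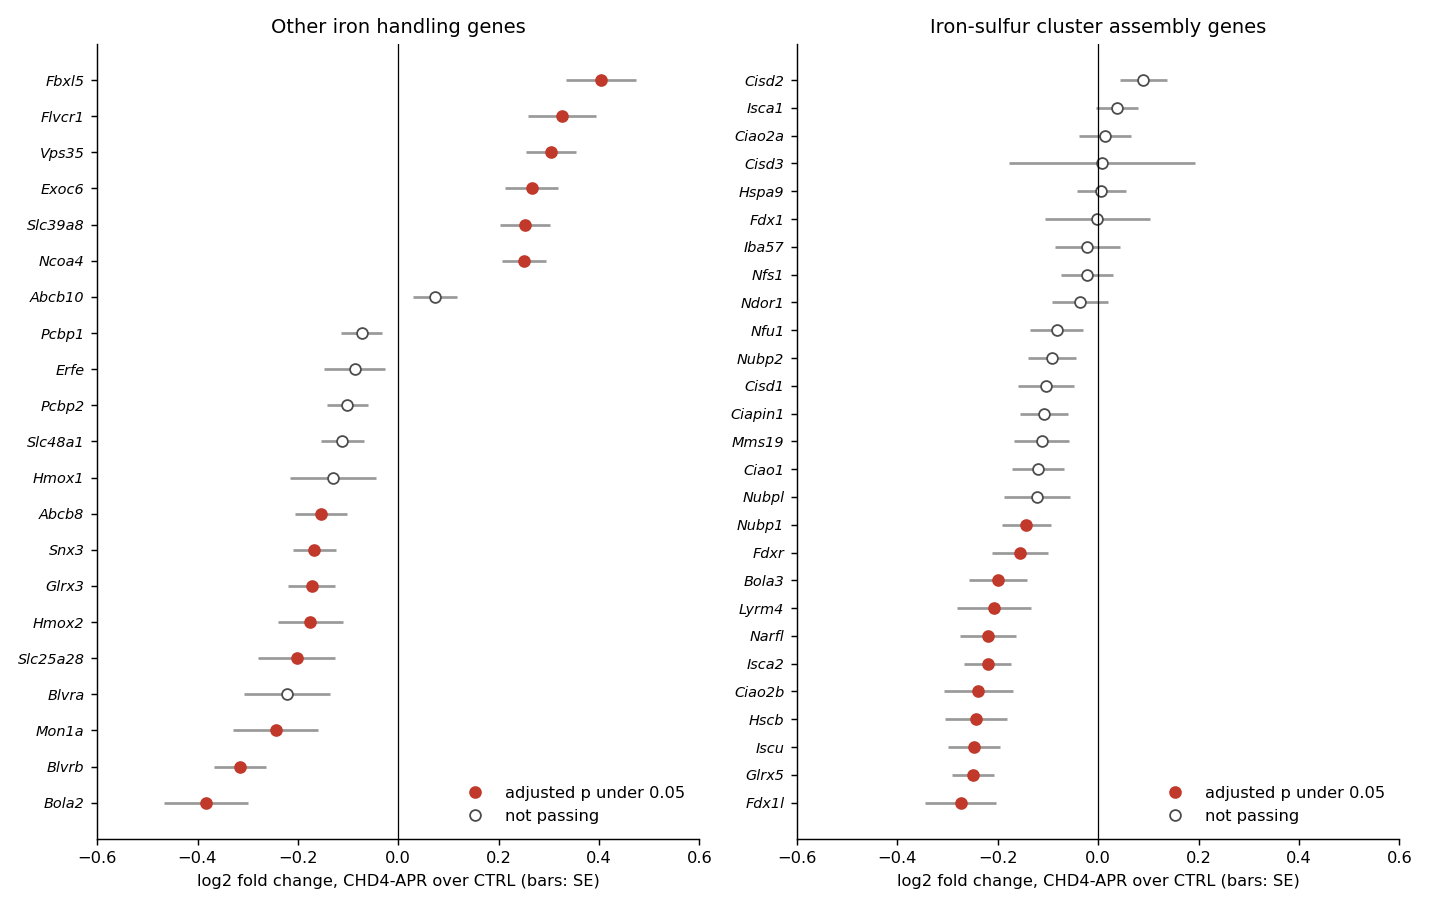
Log2 fold changes with standard errors (horizontal axis) of tested genes of other iron handling (left) and of iron-sulfur cluster assembly (right), 1 gene a line; not every gene of either list is drawn. Filled points have an adjusted p under 0.05, and they lie on both sides of 0 on the left and below 0 on the right.

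The 9 genes known to carry an iron-responsive element overlap the 10 iron genes in 5 cases. Of the 8 tested, 3 were called higher, against 20.4% of all genes, and 3 lower, against 17.8% (75% in either direction, against 38.3%), with a median log2 fold change of -0.043. After the correction 1 was called (Fth1), against 28.1% of all genes. Genes with the element in the 3′ UTR rose in the case of Tfrc and of Cdc42bpa, a kinase of the cytoskeleton (log2 fold change 0.29, SE 0.056, edgeR adjusted p = 7.2e-04), and Slc11a2 did not pass the test. The length and GC correction turned both directions, to -0.019 for Tfrc and -0.038 for Cdc42bpa, with edgeR adjusted p of 0.81 and 0.64. Of those with a 5′ element, Fth1 and Ftl1 fell and Slc40a1 rose. Alas2, the first enzyme of erythroid heme synthesis, had a log2 fold change of -0.11 (edgeR adjusted p = 0.089).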

How the data were processed

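RNA from 6 G1E-ER4 libraries (3 CTRL, 3 CHD4-APR; TruSeq v2, poly(A), a kit that does not mark strand) was sequenced. The authors trimmed reads with Cutadapt, aligned them to GRCm38 with STAR 2.7.10a and deposited raw counts per Ensembl gene from featureCounts. The strand setting and the handling of multiply mapped reads are not given in the sources used here. The table's 2 further columns, of no listed sample, were not used. Symbols came from GENCODE M21, which held 48349 of 48709 identifiers.

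Counts were filtered with filterByExpr, scaled by TMM and tested with edgeR 4.0.16 (quasi-likelihood, Benjamini-Hochberg over all genes, threshold 0.05), with the 2 groups as the only term. CPM use the TMM-scaled library sizes. The edgeR, DESeq2 and limma-voom fits were tested on simulated counts. These held no trend with length or GC content, so they cannot check the removal of such a trend. The second fit passed per-library trends on log2 exonic length and GC content, from mgcv 1.9.3, as offsets; 12677 genes had both. Within-library log2 ratios were compared by exact permutation (scipy 1.17.1). Alternatives were DESeq2 1.42.0, limma-voom 3.58.1, other scalings and filters, hemoglobin removal, a replicate block and each library left out. Text outside the 10 genes names, at most 6 per list by adjusted p, genes called with a change of at least 1.2-fold, besides Slc25a28, the ferritin copies and, for Tfrc and Fth1, the 3 genes of highest correlation with a mean log2 CPM of at least 5. Genes outside this rule that stand beside a count of 5 or fewer, or as examples of genes not tested, were named after their values were seen. Alas2, and Slc4a1 beside the marker sums, are also outside this rule. The genes and lists were chosen with earlier results of these data known. Some genes of the lists enter the counts but are not reported here by name.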

Additional observations from a re-analysis of the deposited data

How the results depend on the processing

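Correction for length and GC content moved the most values. It lowered the number of iron genes called from 5 to 2, of other iron handling genes from 15 to 9 and of genes with a known iron-responsive element from 6 to 1, and the counts were again 2, 9 and 1 when it was combined with the replicate block. It turned the direction of the log2 fold change of Tfrc (-0.019, and -0.018 with the block), Tfr2 (0.067 and 0.066), Slc11a2 (-0.031 and -0.031), Slc40a1 (-0.064 and -0.059) and Aco1 (0.023 and 0.023). Leaving out 1 library gave log2 fold changes of -0.070 to 0.0095 for Tfr2, -0.0039 to 0.17 for Slc25a37 and -0.024 to 0.012 for Aco1, none of which passed the test in any fit. At an adjusted p under 0.01, 7 of the 28 iron-sulfur cluster genes were called, against 12 at 0.05. Correlations of same-numbered deviations were 0.070, 0.055 and -0.035. They cannot settle whether replicate numbers mark shared cultures, which the labels do not say. With a replicate block 5 of the 10 iron genes were again called. Over all genes the block gave 2739 called higher and 2475 lower, against 2601 and 2270 without it. The other scalings, filters and tools gave 5 or 6 iron genes called, and leaving out 1 library gave 4 or 5. The smallest count of the 10 genes, for Slc40a1 in CTRL replicate 1, was 1048. Pairs of libraries within a group were set against counting error over all genes tested, by chi-square per degree of freedom. Counting error alone would give about 1. The values were 4.61 to 15.5, and the largest was for CTRL replicates 1 and 2.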
